A study of Mus musculus with 5 samples.

Results

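The genes described here encode the MHC class I antigen presentation machinery of the mouse. They are the heavy chains H2-K1, H2-D1 and H2-T23, the light chain B2m, the peptide transporter and its partner (Tap1, Tap2 and Tapbp), and the inducible proteasome subunits Psmb8, Psmb9 and Psmb10. All probe sets that the array's annotation assigns to these 10 named genes were taken, 31 probe sets in all, of 45101 on the array. Of these, 26 carry 1 gene symbol and 5 carry several. H2-T23 has only probe sets that it shares with the pseudogene H2-T-ps, so it is shown beside the others but is not counted, and counts of genes run over the other 9, out of 9621 genes that passed the filter on low values.

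The cells were 32D, a murine myeloid progenitor line that normally grows on interleukin-3. They had been stably transduced with retroviral FLT3-ITD constructs, which encode the receptor tyrosine kinase FLT3 with an internal tandem duplication, and are labelled ITD78, ITD598, ITD602, ITD611 and ITD613. All 5 groups shared the same handling, 3 h of starvation and then 1 h with a tyrosine kinase inhibitor that the labels do not name, and each was hybridised to 1 Affymetrix Mouse430_2 array. The labels do not say whether a line was 1 clone or a pool, whether FLT3 was mouse or human, or what the construct numbers mean. With 1 array per construct and no array of untransduced cells, differences have no replicate check, and no p-value is given.

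Nearly all nucleated cells display peptides from their own proteins on MHC class I molecules. Proteasomes cut the proteins, the Tap1 and Tap2 transporter carries the peptides into the endoplasmic reticulum, and Tapbp (tapasin) holds it next to an empty heavy chain and B2m until a peptide binds. Interferons are known to raise the whole set, and Psmb8, Psmb9 and Psmb10 then replace the standard catalytic subunits Psmb5, Psmb6 and Psmb7 to form the immunoproteasome.

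The scale is the log2 of the deposited RMA signal, on which a difference of 1 is 2-fold. Levels of different probe sets cannot be set against each other, so each gene was compared with itself across arrays. For each gene the probe set with the highest mean stood for it. Its range is its highest minus its lowest value over the 5 arrays, and 0.5 (1.41-fold) and 1 (2-fold) served as marks of size. As a scale for these sizes, the differences over all 9621 genes between the closest arrays, ITD598 and ITD611, had an SD of 0.18. That SD also holds any real difference between these constructs.

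Over the 5 arrays the 9 genes ranged from 0.18 for Tapbp to 1.28 for Psmb10, with a median range of 0.56 beside 0.43 for all genes. Psmb10 alone reached a range of 1, as did 10.4% of all genes. Psmb10, Psmb8, Psmb9, Tap1 and Tap2 reached 0.5, as did 41.1% of all genes, so 5 of 9 is not far from this background. H2-K1, H2-D1, B2m and Tapbp stayed below 0.5, while the probe set shared by H2-T23 reached 0.59. The count at 0.5 was 2 without ITD78 and 3 without ITD598, and without ITD613 no gene reached 1.

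**Figure D1:**
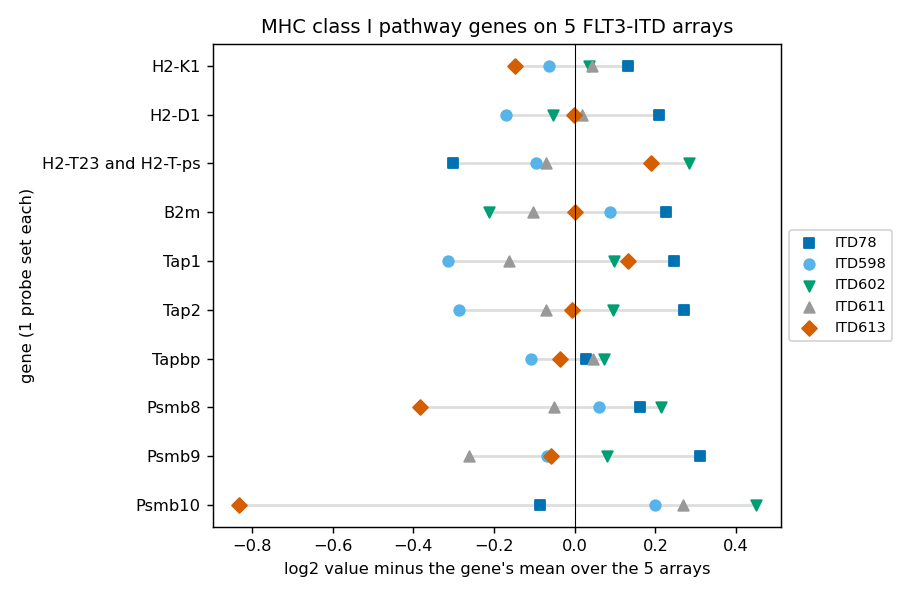
Each row is a gene (1 probe set each), and each symbol is 1 array, placed by its log2 value minus the gene's own mean over the 5 arrays; grey bars span the range, and there are no error bars because each construct has 1 array. Psmb10 is spread furthest, with ITD613 at the low end. The ITD78 square is the rightmost symbol in 6 of the 9 counted genes, by 0.09 to 0.23.

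Promoter windows from RefSeq (build GRCm38.p6; 250 bases before and 50 after each gene start) were given for 9 of the 10 genes, Tap2 not among them. Those of B2m and H2-K1 are shown as the light chain and a heavy chain, that of Tap1 because it is nearly the same DNA as the Psmb9 window, and that of Psmb10 as the gene that differed most. The windows are B2m at chr2:122147437-122147736, plus strand, H2-K1 at chr17:34000298-34000597, minus strand (1 of 2 listed), Tap1 at chr17:34187306-34187605, plus strand, and Psmb10 at chr8:105938343-105938642, minus strand. Capitals mark motif matches on either strand, as named in the next paragraph.
B2m: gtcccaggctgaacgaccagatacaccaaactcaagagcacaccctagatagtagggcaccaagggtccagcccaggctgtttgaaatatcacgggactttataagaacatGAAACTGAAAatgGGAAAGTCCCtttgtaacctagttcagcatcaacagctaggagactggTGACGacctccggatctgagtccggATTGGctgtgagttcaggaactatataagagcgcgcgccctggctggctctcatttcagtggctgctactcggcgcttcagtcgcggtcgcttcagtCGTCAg
H2-K1: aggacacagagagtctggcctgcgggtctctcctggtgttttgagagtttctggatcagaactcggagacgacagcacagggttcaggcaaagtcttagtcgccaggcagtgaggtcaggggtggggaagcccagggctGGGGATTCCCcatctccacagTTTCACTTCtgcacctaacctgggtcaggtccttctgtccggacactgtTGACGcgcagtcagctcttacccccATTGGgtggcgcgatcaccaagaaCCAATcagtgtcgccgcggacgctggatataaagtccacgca
Tap1: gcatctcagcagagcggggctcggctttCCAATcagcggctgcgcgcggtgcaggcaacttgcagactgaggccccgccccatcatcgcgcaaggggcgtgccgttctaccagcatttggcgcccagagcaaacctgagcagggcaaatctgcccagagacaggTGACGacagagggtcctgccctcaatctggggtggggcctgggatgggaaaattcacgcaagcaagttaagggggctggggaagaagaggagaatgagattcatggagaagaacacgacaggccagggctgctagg
Psmb10: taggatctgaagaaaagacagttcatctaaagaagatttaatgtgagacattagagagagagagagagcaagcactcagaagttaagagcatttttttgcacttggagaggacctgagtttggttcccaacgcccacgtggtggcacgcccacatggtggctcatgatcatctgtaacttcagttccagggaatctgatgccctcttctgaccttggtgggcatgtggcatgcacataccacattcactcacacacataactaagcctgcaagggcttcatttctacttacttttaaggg

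The motifs searched were a core of the interferon-stimulated response element (GAAANNGAAA), a shorter class I form of it (GAANNGAAA), a gamma-activated site (TTCNNNGAA), a kappa B site (GGGNNTTNCC), a cyclic AMP response element core (TGACG) and a CCAAT box (CCAAT). The class I form was not among the motifs first planned and was added to them. No matches overlapped in these windows. The 6 motifs occur in 3.44%, 7.52%, 8.30%, 4.79%, 20.8% and 37.4% of all 32851 promoter windows, in that order. H2-K1 and H2-D1 both hold the class I form, the kappa B letters, the cyclic AMP core and CCAAT boxes in the same order, and their windows are 88.3% identical over 239 aligned bases. B2m holds the full interferon core at positions -139 to -130, counted from the first base of the gene as 0, with kappa B letters after it. H2-T23 also holds the full interferon core, and Psmb8 a gamma-activated site.

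Psmb9 and Tap1 lie next to each other on chromosome 17 and are read in opposite directions from starts 226 bases apart, so their windows share 275 of 300 bases (chr17:34187306-34187580) and the same 2 matches, 1 cyclic AMP core and 1 CCAAT box. Across the arrays both were highest on ITD78, whereas the lowest was ITD611 for Psmb9 and ITD598 for Tap1. Psmb8 and then Tap2 follow Tap1 as the next protein-coding genes. Psmb10 lies apart from the MHC, on chromosome 8, and none of the 6 motifs is found in its window. That says only that these letters are absent from these 300 bases, and whether these cells use the listed gene start was not tested. How many of all promoter windows hold none of the 6 motifs was not computed, so an empty window cannot be called unusual.

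**Figure D2:**
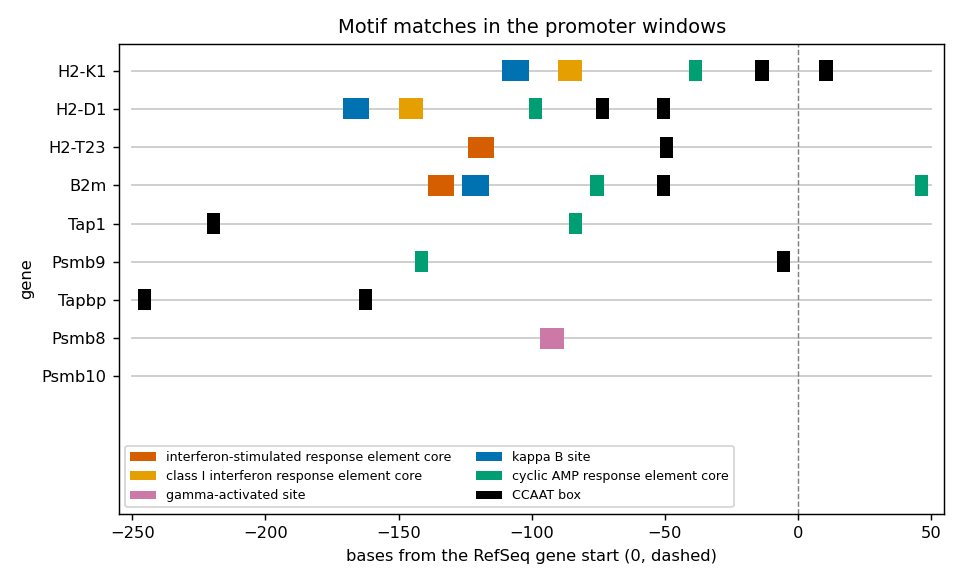
Each row is the promoter window of 1 gene, from 250 bases before to 50 bases after the RefSeq gene start (dashed line at 0), and coloured boxes are motif matches on either strand, drawn to scale. H2-K1 and H2-D1 show the same series of boxes, Psmb9 and Tap1 the same pair in mirror order, and the row of Psmb10 is empty.

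Among the inducible proteasome subunits, Psmb10 (also called MECL-1, a trypsin-like subunit) differed most. It read 6.75 on ITD78, 7.03 on ITD598, 7.28 on ITD602, 7.10 on ITD611 and 6.001 on ITD613. The last array was apart from the rest, 0.75 below the next lowest (ITD78) with a difference of -1.14 from the mean of ITD598, ITD602 and ITD611, which is 2.20-fold. Those 3 arrays lay within 0.25 of one another (mean 7.14, SD 0.13 over 3 constructs). Over all genes, 4.36% lay at least 0.5 below every other array on ITD613. Psmb10 has 1 probe set, so no second probe set could be set beside it.

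Psmb8 (LMP7, the chymotrypsin-like subunit) also had its lowest value on ITD613, but by less. It read 8.09 on ITD78, 7.99 on ITD598, 8.14 on ITD602, 7.88 on ITD611 and 7.55 on ITD613. The ITD613 value lay 0.33 below the next lowest and differed by -0.46 from the mean of ITD598, ITD602 and ITD611. Its neighbours on the chromosome, Tap1 and Tap2, were not lowest on ITD613. The second Psmb8 probe set was also lowest on ITD613 (1.91, against 2.05 to 2.51), in a low range where sizes say little.

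Psmb9 (LMP2), the third subunit, did not share the low value on ITD613. It read 7.21 on ITD78, 6.83 on ITD598, 6.98 on ITD602, 6.63 on ITD611 and 6.84 on ITD613. ITD78 was highest, by 0.23, and ITD613 lay between ITD598 and ITD602. The 3 inducible subunits thus differed from the mean of ITD598, ITD602 and ITD611 by -1.14 (Psmb10), -0.46 (Psmb8) and 0.02 (Psmb9) on ITD613. On ITD78 the differences were -0.39, 0.09 and 0.39.

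The constitutive subunits that these 3 replace varied less. Psmb5 read 8.89 on ITD78, 9.10 on ITD598, 9.20 on ITD602, 9.04 on ITD611 and 8.97 on ITD613. Psmb6 had a range of 0.20, from 8.59 on ITD613 to 8.78 on ITD602, and Psmb7 one of 0.46, from 6.65 on ITD613 to 7.11 on ITD602. Psmb7, whose place Psmb10 takes, differed on ITD613 by -0.27 from the mean of ITD598, ITD602 and ITD611. None of the 3 reached a range of 0.5, which 41.1% of all genes did.

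**Figure D3:**
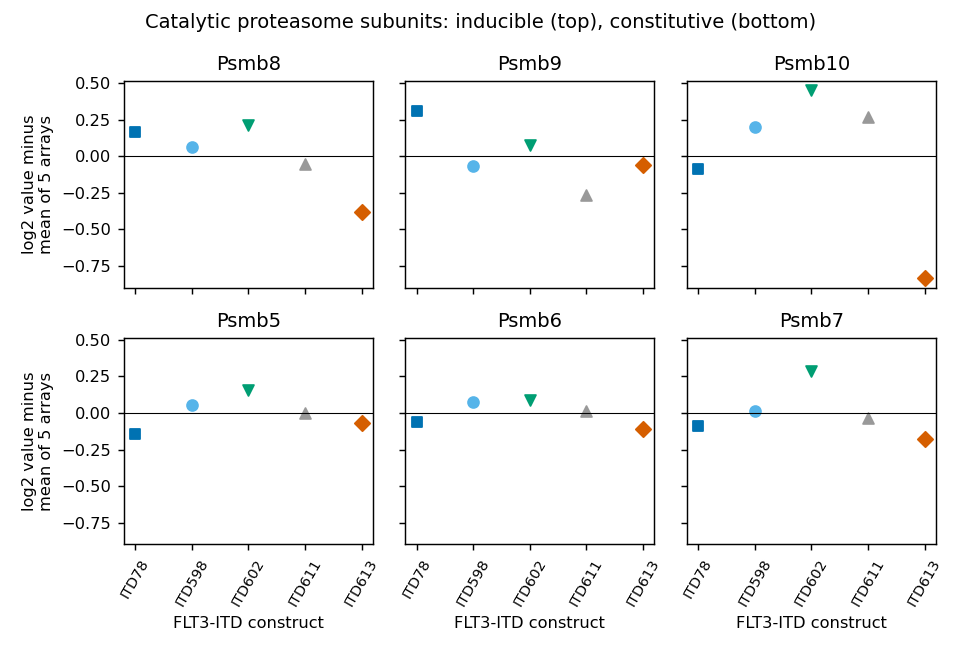
Each panel is 1 catalytic proteasome subunit and each symbol 1 array (x axis, FLT3-ITD construct; y axis, log2 value minus the subunit's mean over the 5 arrays). The inducible subunits are on top and their constitutive counterparts below. Psmb10 on ITD613 is the lowest point of all panels, and Psmb5, Psmb6 and Psmb7 stay within narrower ranges, of 0.30, 0.20 and 0.46.

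Tap1 and Tap2, the partner chains of the peptide transporter, had ranges of 0.56 each and the same order at both ends. Tap1 read 4.64 on ITD78, 4.08 on ITD598, 4.49 on ITD602, 4.23 on ITD611 and 4.52 on ITD613. Tap2 read 6.76 on ITD78, 6.20 on ITD598, 6.58 on ITD602, 6.42 on ITD611 and 6.48 on ITD613. Both were highest on ITD78 and lowest on ITD598. The gaps between neighbours in the order were 0.11 to 0.22 at the ends, near the SD of 0.18 for all genes between the closest arrays. The other 3 Tap1 probe sets stayed at 2.02 or lower on all arrays.

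Tapbp was the steadiest gene of the set. It read 5.42 on ITD78, 5.29 on ITD598, 5.47 on ITD602, 5.44 on ITD611 and 5.36 on ITD613, and only 10.1% of all genes had a smaller range. All 5 arrays lay within 0.18 of one another, so no order can be read from them. Its other probe set lay between 2.09 and 2.46.

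B2m, the light chain shared by all classical and most class I-like molecules, was highest on ITD78 with both of its probe sets. The first read 9.84 on ITD78, 9.70 on ITD598, 9.40 on ITD602, 9.51 on ITD611 and 9.61 on ITD613. The second read 9.33, 9.14, 9.07, 9.04 and 9.18 on the same arrays. The next array was ITD598 on the first probe set, 0.14 lower, and ITD613 on the second. The lowest array was ITD602 on the first and ITD611 on the second, so only the top place was common to both.

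The classical heavy chains H2-K1 and H2-D1, which bind the peptide, were read by 4 and 9 probe sets of 1 symbol. Of these, 3 for H2-K1 and 6 for H2-D1 were below 3.74 on every array, a low range where identical values recur across probe sets and sizes say little. In all, 11 of them have names ending in _x_at, which marks probe sets that can bind several similar transcripts, and heavy chain genes resemble each other and vary between mouse strains. How well these probes match the alleles of 32D cells was not tested.

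H2-K1 was represented by a probe set that read 4.08 on ITD78, 3.88 on ITD598, 3.98 on ITD602, 3.99 on ITD611 and 3.80 on ITD613. H2-D1 read 4.78 on ITD78, 4.40 on ITD598, 4.52 on ITD602, 4.59 on ITD611 and 4.57 on ITD613. ITD78 was highest for both, by 0.09 and 0.19. Other probe sets of these genes differed in the array that was highest. A second H2-D1 probe set above the low range read 4.10 on ITD611 and 3.89 on ITD78, whereas an H2-D1 probe set within the low range was also highest on ITD78 (3.70) and lowest on ITD613 (3.15). For H2-K1 the other 3 probe sets of 1 symbol, all within the low range, were highest on ITD613. The brightest of them read 3.63 there and was lowest on ITD602 (2.74). The highest array thus depended on the probe set for both heavy chains.

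H2-T23 encodes Qa-1, a nonclassical heavy chain that presents leader peptides of other class I molecules to receptors of natural killer cells. The probe set it shares with H2-T-ps read 7.62 on ITD78, 7.83 on ITD598, 8.21 on ITD602, 7.85 on ITD611 and 8.11 on ITD613. ITD78 was lowest here, differing by -0.34 from the mean of ITD598, ITD602 and ITD611, and ITD602 was highest. The order differs from that of H2-K1, H2-D1 and B2m. The second shared probe set read between 1.04 and 1.46.

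**Figure D4:**
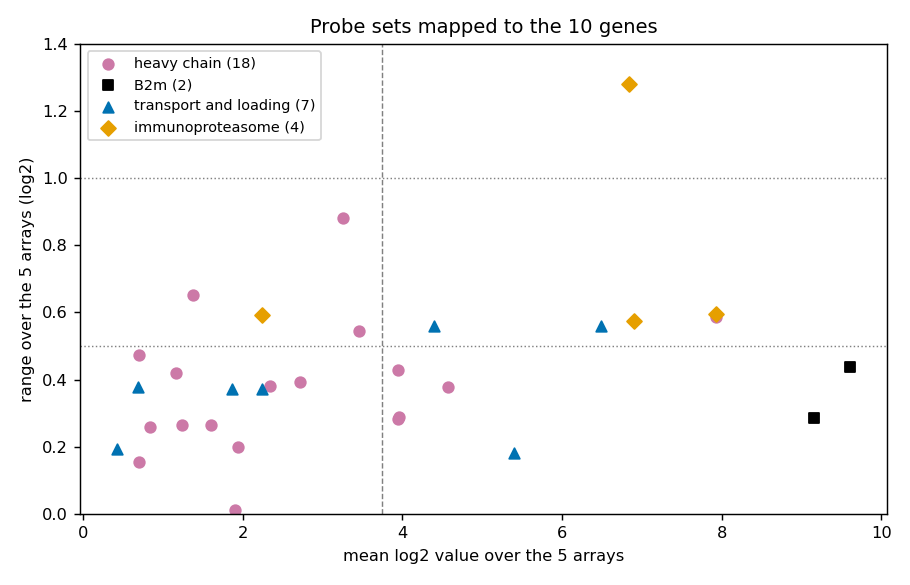
Each symbol is 1 of the 31 probe sets, placed by its mean log2 value (x axis) and its range over the 5 arrays (y axis, log2), with symbol shape by role and the number of probe sets in brackets. The dashed line marks 3.74, below which values are stepped, and the dotted lines mark ranges of 0.5 and 1. Most heavy chain probe sets lie left of the dashed line, and Psmb10 alone lies above 1.

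By array, ITD78 was the highest of the 5 for 6 of the 9 genes (H2-K1, H2-D1, B2m, Tap1, Tap2 and Psmb9), a count chosen after the values were seen. Over all genes the share with their highest value on ITD78 was 11.3%. The lead over the next array ran from 0.09 for H2-K1 to 0.23 for Psmb9. Only for H2-D1 (0.19) and Psmb9 did it exceed the SD of 0.18 between the closest arrays. Against the mean of ITD598, ITD602 and ITD611, 8 of the 9 were higher on ITD78, as were 46.1% of all genes. The median was 0.28 beside -0.02 for all genes. Psmb9 had the largest difference (0.39), followed by Tap1 (0.37), Tap2 (0.36), B2m (0.30) and H2-D1 (0.28), and Psmb10 was the 1 lower gene. None reached 0.5 in either direction, as 3.61% of all genes did upward and 4.51% downward. The difference thus had the same sign for most of the genes and was small for each. For H2-K1 (0.13), Psmb8 (0.09) and Tapbp (0.02) it was under the SD of 0.18. Without probe sets ending in _x_at, _s_at or _a_at, 4 genes were left, of which 2 were highest on ITD78. For H2-K1 and H2-D1 the order rests on the probe set chosen, and H2-T23 went the other way.

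ITD613 gave no such common direction. The median of the 9 genes was 0.02 from the mean of ITD598, ITD602 and ITD611, beside 0.01 for all genes, and -0.04 with arrays centred on their median. Psmb10 was the 1 gene past 0.5 downward, as were 11.0% of all genes, and none was past it upward, as were 13.9%. Tap1 had the largest upward difference (0.26). With the probe set that stood for each gene, no member was highest on ITD613, where 35.7% of all genes had their highest value. H2-K1, Psmb8 and Psmb10 were lowest there, as were 29.4% of all genes. For H2-K1 this rests on 1 of its 4 probe sets, and the other 3, within the low range, were highest on ITD613. Set directly against ITD78, ITD613 was lower for all 9 genes, but the share of all genes lower was not computed. For the 6 genes highest on ITD78 this follows from that place, and the probe set shared by H2-T23 was 0.49 higher on ITD613. Psmb10 (-0.75) and Psmb8 (-0.55) were lower by more than 0.5, while 16.4% of all genes were at least 0.5 apart between these arrays.

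ITD598, ITD602 and ITD611 differed little from one another. No member reached 0.5 between any pair of them, the widest difference being that of Tap1 between ITD598 and ITD602 (0.41). Few of all genes did so either: 3.88% between ITD598 and ITD602, 1.36% between ITD598 and ITD611 and 2.88% between ITD602 and ITD611. Tapbp, Psmb8 and Psmb10 were highest on ITD602, by 0.03, 0.05 and 0.18, as were 29.5% of all genes. For Tapbp and Psmb8 these leads are too small to read an order from. The title of the ITD602 array carries another date-like string than the rest, and for that array this and the construct cannot be told apart. Without ITD602, the Psmb10 difference of ITD613 from the mean of ITD598 and ITD611 was -1.07.

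Some markers of the cells differed between the same arrays as Psmb10. Of 10 myeloid progenitor markers, 5 (Mpo, Prtn3, Ctsg, Myb and Csf2rb2) were above 3.74 on every array, while Elane, Kit, Cd34 and Il3ra were below it on every array. Their summed level (log2 of the summed linear values) was 10.50, 10.68 and 10.42 on ITD598, ITD602 and ITD611, and lower on ITD78 (9.95) and ITD613 (10.21), a sum over probe sets in which the brightest weigh most. The members did not go one way. Ctsg and Prtn3 (granule proteases) and Csf2rb2 (a cytokine receptor chain) differed on ITD613 by -2.77, -1.60 and -2.42 from the mean of ITD598, ITD602 and ITD611. Myb, a transcription factor of progenitors, differed the other way, by 0.88 on ITD613 and 0.32 on ITD78, and its value on ITD613 (9.91) makes up most of the sum there. Of 8 macrophage and dendritic cell markers, none was above 3.74 on all arrays and 5 were below it on all. Their sum ran from 7.05 to 7.54 on ITD598, ITD602 and ITD611, against 5.45 on ITD78 and 5.14 on ITD613, and Adgre1 alone read 7.21 on ITD602 and 2.68 on ITD613. This list was mixed too. Of the 3 that passed the filter, Adgre1 and Csf1r were lower on ITD78 and ITD613. Zbtb46 went the other way, highest on ITD78 (3.85) and lowest on ITD602 (3.35). The 3 B cell, 5 T and NK cell and 4 fibroblast and stroma markers with a probe set were below 3.74 on every array. The part of these shifts in the Psmb10 difference was not tested, and in such bulk samples fewer cells of a type and less RNA per cell cannot be told apart.

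Other genes of the pathway were described in 9 lists, chosen with earlier results of these data known. The list that stood lowest on ITD613 was that of peptide trimming and loading in the endoplasmic reticulum, with a median of -0.49 from the mean of ITD598, ITD602 and ITD611. All 8 of its genes passed the filter. On ITD613, 4 were at least 0.5 lower, as were 11.0% of all genes, and 1 at least 0.5 higher, as were 13.9%. Erap1, the aminopeptidase that trims peptides to fit class I molecules, read 3.64 on ITD78, 4.06 on ITD598, 3.85 on ITD602, 3.78 on ITD611 and 2.87 on ITD613, so its lowest values reach into the stepped range. Sec61a1, the channel through which new proteins enter the endoplasmic reticulum, read 9.70, 10.05, 10.21, 10.03 and 9.16 on the same arrays. Calr (calreticulin), a chaperone of the loading complex, read 10.35, 10.46, 10.74, 10.68 and 9.98.

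For these 3 genes ITD613 was below every other array, and ITD78 was next lowest. Hspa5, a general chaperone and the fourth lower gene, differed by -0.64. Derl1, which takes part in export of misfolded proteins, went the other way and was 0.68 higher on ITD613. Canx and Pdia3, which help heavy chains fold, were -0.25 and -0.34, and Tapbpl, a tapasin-related gene in the stepped range, was -0.11. On ITD78 the median of the list was -0.26, with no gene past 0.5, as 4.51% of all genes were downward and 3.61% upward.

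Proteasome activator and assembly genes had members in both directions on ITD613. Psme1, a subunit of the interferon-inducible activator PA28, read 8.83 on ITD78, 8.56 on ITD598, 8.33 on ITD602, 8.31 on ITD611 and 9.05 on ITD613. It was highest on ITD613 and next highest on ITD78, and the difference on ITD613 (0.65) is opposite in sign to that of Psmb10. Psmg4, an assembly chaperone, differed by -0.72 on ITD613 and by -0.48 on ITD78. Psme3, the nuclear activator, differed by 0.38 and Psmg1, another assembly chaperone, by -0.37 on ITD613. Of the 7 genes of this list that passed the filter, 1 was past 0.5 in each direction, and the median was 0.21. Over all genes 11.0% were past it downward and 13.9% upward, so these counts are near the background.

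The 11 other subunits of the 20S core had a median range of 0.22, below the 0.43 of all genes. None was past 0.5 on ITD613 or ITD78. Of all genes, 11.0% were past it downward and 13.9% upward on ITD613, and 4.51% and 3.61% on ITD78. Psmb2 had the widest range (0.54), from 8.39 on ITD78 to 8.93 on ITD602, followed by Psma4 (0.47), Psmb3 (0.38) and Psmb1 (0.36). The core as a whole was thus steadier across arrays than Psmb10.

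Regulators of class I genes had members in both directions on ITD613, with a median of 0.16. Of 14 genes 3 were at least 0.5 higher and 1 lower, beside 13.9% and 11.0% of all genes, so these counts are not far from the background. Nlrc5, the transactivator of class I genes, read 3.04, 3.16, 2.94, 3.12 and 3.69 on ITD78, ITD598, ITD602, ITD611 and ITD613, all in the stepped range. Irf1, an interferon-induced activator of class I and immunoproteasome genes, was lowest on ITD613 (4.20) and read 4.37 on ITD78, against 4.52 to 4.82 on the other 3. Creb1, which binds cyclic AMP response elements, was 0.63 higher on ITD613, and Rela, an NF-kB subunit, 0.50 higher. Eed, a Polycomb subunit, differed by -0.54 on ITD78, the 1 gene of the list past 0.5 there, as were 4.51% of all genes downward.

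Of the interferon receptor and JAK genes, Ifngr2, the signalling chain of the interferon gamma receptor, had the widest range. It read 2.96 on ITD78, 4.19 on ITD598, 4.08 on ITD602, 3.98 on ITD611 and 3.47 on ITD613, low on the same 2 arrays as Psmb10 but in the other order. Both low values lie in the stepped range, where sizes say little. On ITD613 Ifnar2 differed by -0.73 and Ifnar1 by -0.35, and Tyk2, a kinase bound to the interferon alpha receptor, by 0.71. The median over 7 genes was -0.20 on ITD613 and -0.02 on ITD78.

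Interferon-stimulated genes outside the pathway were mostly low. Of 19 with a probe set, 13 were below 3.74 on every array (Ifit1, Ifit3, Mx1 and Cxcl10 among them), and 8 passed the filter, with medians of -0.04 on ITD613 and -0.05 on ITD78. Bst2 (tetherin) read 4.59 on ITD78 and 4.80 on ITD613, against 5.33 to 5.48 on the other 3 arrays. Ifi47 and Igtp, interferon-inducible GTPases, differed by -0.47 and 0.56 on ITD613, and Ifit2 by 0.35. The list thus had members in both directions.

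Of 6 MHC class II genes with a probe set, all were below 3.74 on every array, and Cd74, the invariant chain, was the 1 that passed the filter (2.82 to 3.15). The 11 other class I and class I-like genes with a probe set were also below it throughout. Among them were H2-M3 (2.90 to 3.36) and H2-T24, which was lowest on ITD78 (2.97) and highest on ITD613 (3.65). These 2 passed the filter, and their median on ITD78 was -0.40 from the mean of ITD598, ITD602 and ITD611, opposite in sign to the genes described here.

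**Figure D5:**
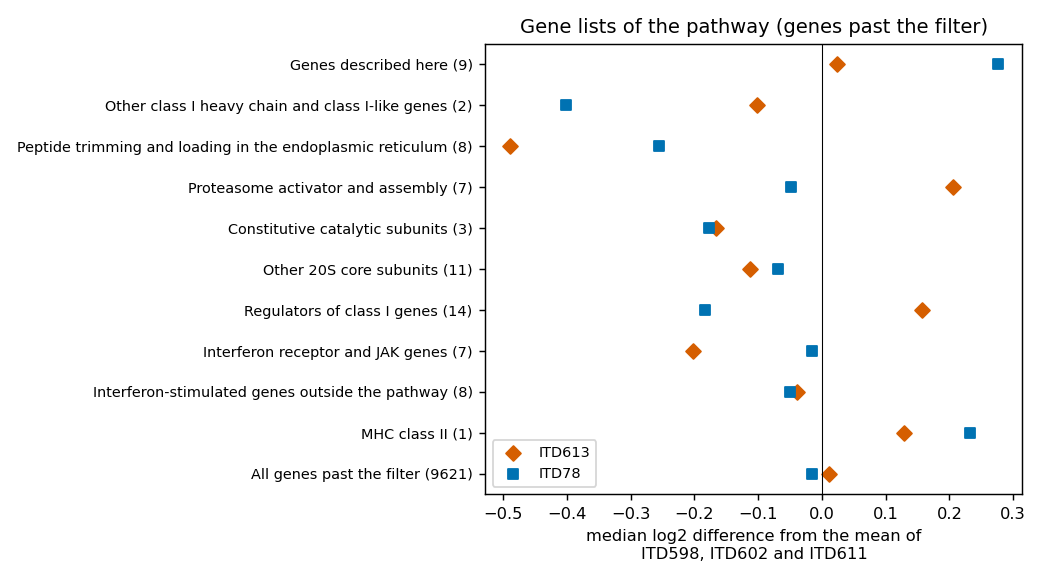
Each row is a gene list with the number of its genes that passed the filter, and symbols give the median log2 difference of ITD613 (diamonds) and ITD78 (squares) from the mean of ITD598, ITD602 and ITD611. The genes described here have the highest ITD78 median (0.28). The list of peptide trimming and loading in the endoplasmic reticulum has the lowest ITD613 median (-0.49), and it also holds the more general genes Hspa5, Sec61a1 and Derl1. Lists of 1 to 3 genes show little more than single genes.

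The genes most like Psmb10 across the arrays were Tspan3, Znrf2, Selenos, Asns and Myo10. Likeness was the root mean square difference of the 5 values after each gene's own mean was subtracted, and it ran from 0.03 for Tspan3 to 0.05 for Myo10. Tspan3, a tetraspanin, read 5.89, 6.21, 6.43, 6.28 and 5.23 on ITD78, ITD598, ITD602, ITD611 and ITD613, and Asns (asparagine synthetase) read 7.81, 8.19, 8.43, 8.20 and 7.18. Both have the order of Psmb10, ITD602 highest, then ITD611, ITD598, ITD78 and ITD613. They are the nearest of 9621 genes over only 5 values each.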

How the data were processed

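Total RNA of 5 cell lines was measured, 1 array per construct, so each group holds 1 sample. The authors deposited log2 signals computed by RMA, a method that corrects background, normalizes arrays to each other and summarises probes, according to the submitters' processing notes. Its software, version and chip definition are not given in the sources used here. Base 2 was inferred: values reach 13.45, more than a natural log of the brightest scanner reading allows (11.09). The number of arrays limits the precision.

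Gene names came from the platform's annotation, with all 10 names matched in a RefSeq table of GRCm38.p6, used for names and neighbours. Probe sets with several symbols stood for no gene. Genes entered if any array reached the 60th percentile of all values (2.75), and the probe set of highest mean stood for a gene. The low range ends at 3.74, the highest value that at least 100 probe sets of an array share. Genes named are all members, up to 4 widest-ranging genes per list, the 5 genes most like the widest member, and the genes of counts of 5 or fewer. Members and lists were chosen with earlier results of these data known. Hspa5, Canx, Pdia3, Tapbpl, Rela and the low interferon genes were named after their values were seen. The rules were tested on simulated data. Python 3.11.15, numpy 2.4.6 and pandas 2.3.3 were used. Alternatives covered the probe set rule, filter, low values, scaling, reference and each array left out.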

Additional observations from a re-analysis of the deposited data

How the results depend on the processing

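A value was held to have moved where it changed by more than 0.18, the SD of all genes between ITD598 and ITD611. For a median the mark was 0.06 (that SD divided by the square root of 9), and for a count 1.5 times. The mark for medians treats the 9 genes as independent, which neighbouring genes need not be. It was kept where 4 or 7 genes were left, so for medians it is only a mark of size. Of 658 recomputed values 633 did not move, and Psmb10 on ITD613 kept its direction in every alternative. Part of this was fixed in advance. The filter and low-value alternatives could not change the value of a counted gene that stayed in. The probe set alternatives could not change Psmb10, which has 1 probe set. Of 500 values of single members (those of Psmb10 on ITD613 aside) 8 moved. Averaging all probe sets of each gene left 7 of the 9 genes, of which 4 were highest on ITD78. The median difference was then 0.014 on ITD602 (from the other arrays) and 0.17 on ITD78 (from ITD598, ITD602 and ITD611). H2-K1 on ITD613 went from -0.19 to 0.16 from the other arrays, and ITD613 became its highest array (0.12 on ITD78). Without probe sets ending in _x_at, _s_at or _a_at, 4 genes were left, of which 3 reached a range of 0.5 and 2 were highest on ITD78, and the ITD78 median was 0.17 from the other arrays and 0.20 from ITD598, ITD602 and ITD611. With arrays centred on their median, the ITD613 median was -0.12 from the other arrays and -0.041 from ITD598, ITD602 and ITD611, a change of sign at a size too small to call. With 1 array left out in turn, genes with a range of 0.5 numbered 2 (without ITD78) to 5, and those with a range of 1 numbered 0 (without ITD613) to 1. Medians from the other arrays ran from 0.029 to 0.21 on ITD602, from -0.095 to 0.0011 on ITD611 (the last without ITD602) and from -0.10 to 0.024 on ITD613. The gap of Psmb10 on ITD613 to the lowest other array ran from -1.03 (without ITD78) to -0.75. The cause of these changes was not tested, beyond the smaller number of genes or arrays. No paired analysis was possible because each construct has 1 array. Signal in the low range limits H2-K1, H2-D1, Erap1, Nlrc5, Ifngr2 and most interferon-stimulated genes.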
